A study of Homo sapiens with 16 samples.

Results

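Ribosome biogenesis was followed through 37 genes in xenograft tumors of the human melanoma cell line A375 under a BET inhibitor, a BRAF inhibitor and their combination. The 37 were taken by symbol from the 23260 gene symbols of the table, as nucleolar proteins, small nucleolar ribonucleoprotein (snoRNP) proteins, rRNA processing factors and RNA polymerase I genes. All 37 were in the table, and all 37 had an FPKM (fragments per kilobase of transcript, scaled to the mapped fragments of the library) of at least 1 in at least 4 tumors, the filter that left 13426 genes for testing. They were placed in 7 roles, with 3 proteins of C/D box snoRNPs, 4 of H/ACA box snoRNPs, 5 RNA polymerase I subunits, 2 polymerase I initiation factors, 5 nucleolar phosphoproteins and helicases, 9 factors of the small subunit and 9 of the large subunit.

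Ribosomes are built in the nucleolus. RNA polymerase I, brought to the rDNA by the initiation factors UBTF and RRN3, transcribes a long precursor that holds the 18S, 5.8S and 28S rRNAs, and the precursor is then modified, cut and folded with ribosomal proteins into a small and a large subunit. C/D box snoRNPs methylate it, H/ACA box snoRNPs turn uridines into pseudouridines, the small subunit processome and the PES1-BOP1-WDR12 complex act in its cleavage, and the nucleolar phosphoproteins organise the place where this happens. Growing tumor cells run this pathway at a high rate.

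The tumors were grown from A375, a BRAF-mutant melanoma line, in both flanks of NOG mice (NOD/Scid/IL2γR-/-, which lack T, B and NK cells but keep other host cells). Each group had 4 tumors from 2 mice, named here by mouse and by left or right flank (2L, 2R, 5L and 5R for control). The control mice received the vehicle, J mice JQ1 at 50 mg/kg once a day, V mice vemurafenib at 25 mg/kg in each of 2 daily doses, and J+V mice both drugs, and tumors were collected on day 5. JQ1 blocks the bromodomains of BET proteins, and vemurafenib inhibits the mutant BRAF kinase. All 4 groups thus share the BRAF mutation of A375 and a single cell line, and 2 tumors of a mouse are not independent animals. rRNA had been removed from the total RNA before sequencing, so the levels below are those of the messenger RNAs of the pathway, and no rRNA level is given.

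The number of reads behind each FPKM is not known, so no counting interval is given. Small nucleolar RNA symbols made up between 38.0% and 57.0% of the summed FPKM of a tumor. The 37 genes together made up between 0.520% and 0.746% of the FPKM outside these symbols. Control tumor 5R stood apart from the other control tumors in these genes: it was the highest of the 4 for 21 genes and the lowest for 12. Of 10 melanocyte lineage markers, 6 passed the filter, among them MITF, SOX10 and S100B, while TYR, TYRP1 and PMEL stayed under 1 FPKM in the control mean and DCT was at 0.

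In J+V tumors, 23 of the 37 genes were lower than in control and 0 were higher (limma, Benjamini-Hochberg adjusted p under 0.05 over the 13426 genes). Over all genes tested, 20.5% were lower and 16.6% higher in the same comparison. The count of 23 was 14 without control tumor 5L and 11 without mouse 33. The median log2 fold change was -0.32 over the 37 and -0.03 over all genes, and 36 of the 37 were below 0. The falls were moderate in size: the steepest, in the large subunit factor BOP1, left 0.526 of the control mean, and among the 23 the shallowest, in WDR12, left 0.833. For 20 of the 37, all 4 J+V tumors lay below all 4 control tumors, against 16.4% of all genes tested. They lay below all 4 J tumors for 23 of the 37 and 22.2% of all genes, and below all 4 V tumors for 3 and 9.15%. No gene of the 37 met the thresholds in the methods of the study, which ask for a fold above 2. The study's own list of apoptotic genes lower in J+V, however, includes smaller falls, such as those of API5 and AKT1. In these bulk samples, fewer cells that express a gene and less RNA per cell cannot be told apart.

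**Figure D1:**
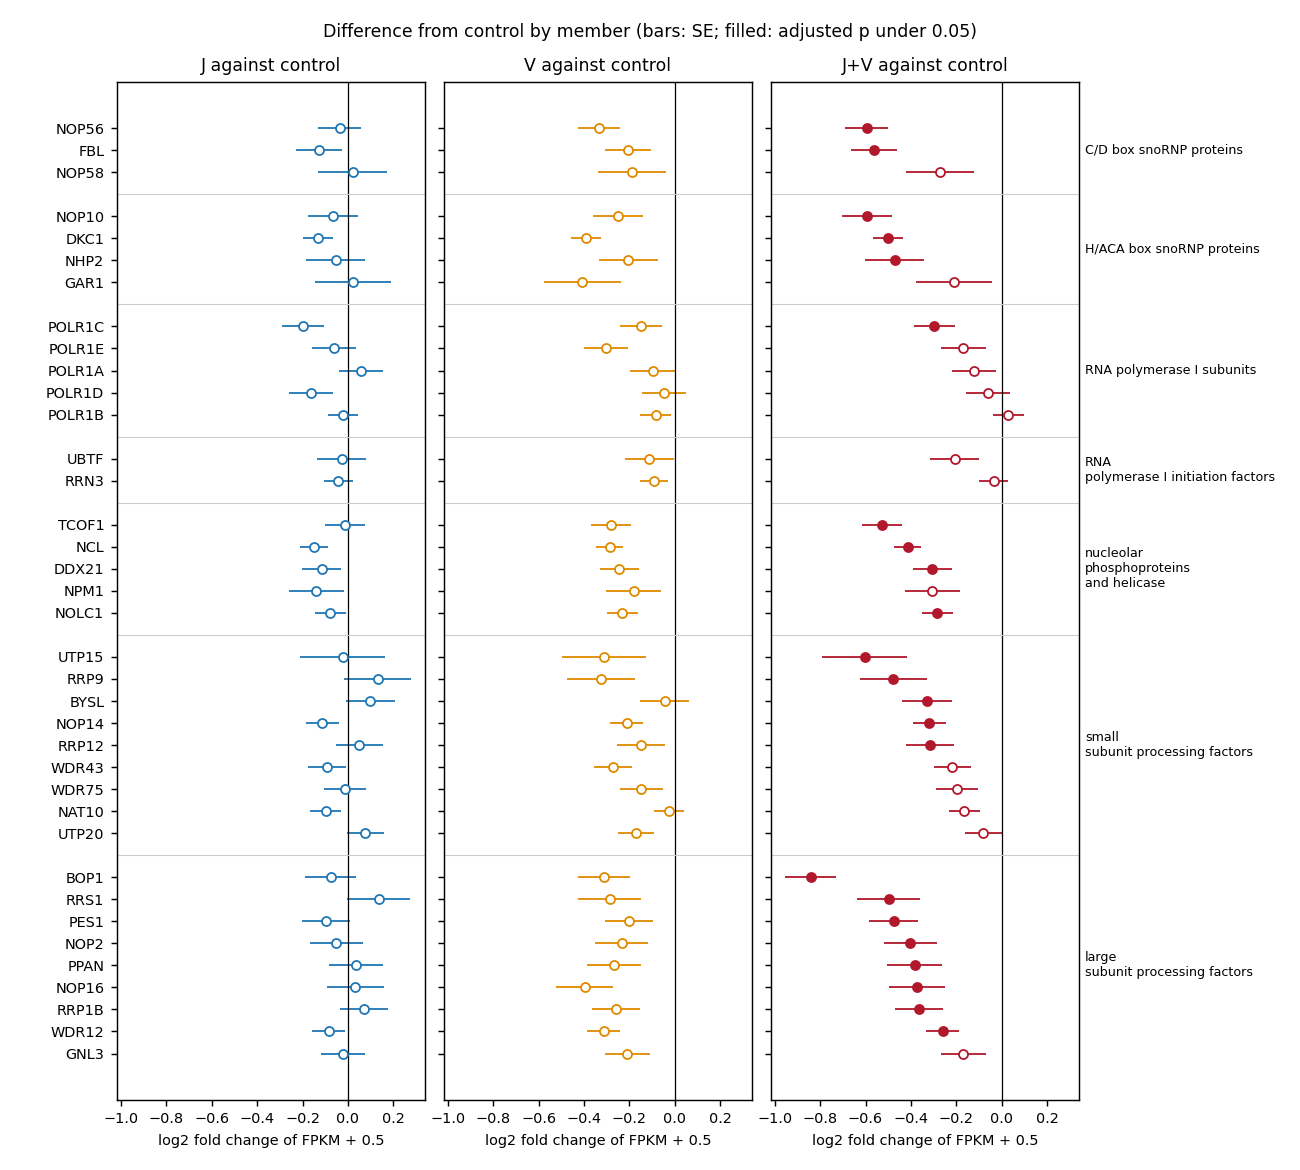
Log2 fold change (FPKM + 0.5) of each of the 37 genes in J, V and J+V against control, with bars for the SE and filled points for an adjusted p under 0.05, ordered by role. Filled points appear in the J+V panel alone, 23 in number, and RNA polymerase I subunits and initiation factors hold 1 of them.

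The falls were spread unevenly over the roles. In J+V against control, 2 of 3 C/D box proteins, 3 of 4 H/ACA box proteins, 4 of 5 nucleolar phosphoproteins and helicases, 5 of 9 small subunit factors and 8 of 9 large subunit factors were lower, with median log2 fold changes of -0.56, -0.49, -0.31, -0.32 and -0.38. Of the 5 polymerase I subunits 1 was lower and of the 2 initiation factors 0, with medians of -0.12 and -0.12. Among all genes tested, the share that was lower was 20.5%. At an unadjusted p under 0.05, 26 of the 37 were lower, where 47.1% of all genes passed in either direction. The difference between the polymerase I genes and the processing factors was not tested.

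Proliferation markers were also lower in J+V. All 10 of a list that includes MKI67, PCNA, CCNB1 and AURKB fell in J+V against control, with a median log2 fold change of -1.23. Their summed FPKM ranged from 450 to 676 in control, from 475 to 543 in J, from 393 to 523 in V and from 160 to 319 in J+V tumors. Every J+V tumor was thus below every other tumor in this sum. Against V, all 10 markers were lower in J+V (median -0.88), where 2 of the 37 genes (median -0.11) and 8.31% of all genes were. The part of these markers in the lower levels of the 37 genes was not tested. Of the melanocyte lineage markers that passed the filter, 2 of 6 were higher in J+V, S100B (16.7 FPKM in control and 54.6 in J+V, adjusted p = 4.84e-05) and MLANA (4.28 and 6.46, adjusted p = 0.0143), and their part was not tested either. Markers of other cell types were read from human symbols, and since reads were aligned to the human genome and the handling of mouse reads was not stated, their levels need not measure host cells. The fibroblast genes LUM and DCN rose, with 3 of 6 fibroblast markers higher, 0 lower and summed FPKM of 36.2 to 121 in control and 62.4 to 115 in J+V. The list was not uniform, with log2 fold changes from -0.16 to 1.67. The collagen gene COL1A1 averaged 14.9 FPKM in control and 11.8 in J+V, and the mean FPKM of COL1A2 was lower in J+V too. LUM measured 4.17 FPKM in control, 11.5 in J, where it did not pass (adjusted p = 0.178), and 13.0 in J+V. The 6 endothelial markers summed to at most 1.97 FPKM and the T cell markers to at most 1.12 in any tumor. Of 6 macrophage markers 3 passed the filter and 0 differed, with sums of 19.9 to 25.9 in control and 23.3 to 27 in J+V. In control, CD68 averaged 19.0 FPKM, while CD163 was at 0 in every tumor. Of 5 erythroid markers 1 passed the filter and 0 differed, and the sum was at most 4.64 FPKM.

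**Figure D2:**
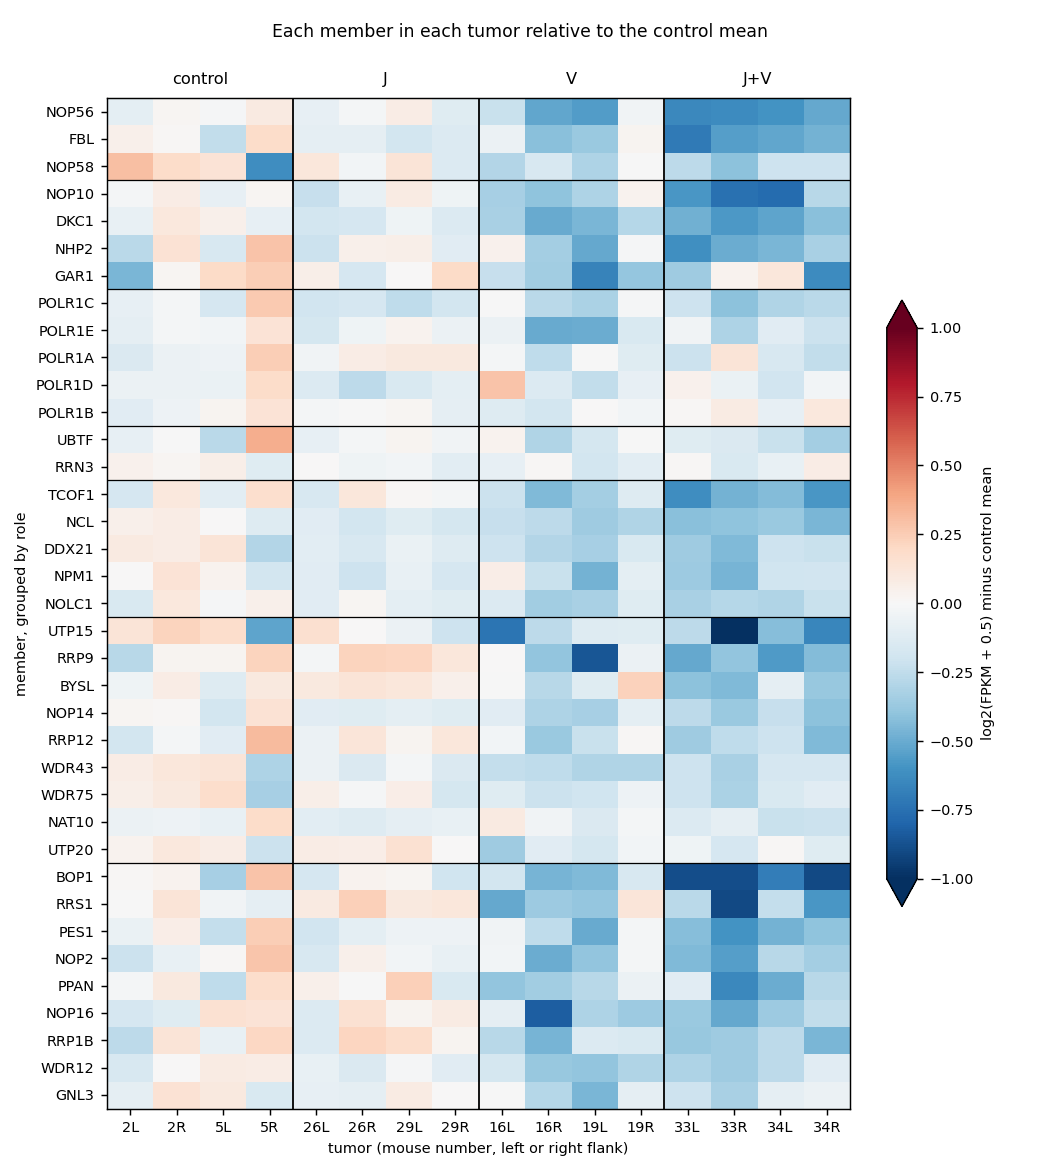
Colour shows log2(FPKM + 0.5) minus the control mean for each gene (rows, by role) in each of the 16 tumors (columns, by group), on a scale cut off at -1 and 1. The J+V columns are blue in most rows outside the polymerase I genes, the V columns are paler and uneven, and control tumor 5R differs in both directions from the other control tumors.

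The promoters of many of these genes hold the canonical E box CACGTG, the letters bound by basic helix-loop-helix leucine zipper factors. Of the 37, 29 matched a RefSeq promoter window (GRCh38.p14, 250 bases before to 50 after the start), and 13 of the 29, or 44.8%, held the motif, which reads the same on both strands and was the only motif searched. POLR1E, TCOF1, RRP1B, RRS1, NOP58, RRP12, BOP1 and NOLC1 were not matched. Over all genes with a window, 8.77% held it, and over the tested protein-coding genes 12.5%. In each of the 13 the nearest copy began within 35 bases of the start. How often it lies so near over all genes with the motif was not counted. The 8 matched genes with the motif that fell in J+V are shown to let their starts be compared, each with the E box in capitals and up to 12 bases on either side, 5′ to 3′ on the strand of the gene.
FBL: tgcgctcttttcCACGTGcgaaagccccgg
NOP10, distal: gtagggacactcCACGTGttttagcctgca
NOP10, proximal: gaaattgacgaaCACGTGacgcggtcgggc
DDX21: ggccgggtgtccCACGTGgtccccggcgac
RRP9: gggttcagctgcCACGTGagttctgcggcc
NOP14: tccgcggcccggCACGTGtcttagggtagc
BYSL: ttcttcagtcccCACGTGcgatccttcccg
PES1: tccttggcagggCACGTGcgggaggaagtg
NOP2: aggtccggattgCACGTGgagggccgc
The distal copy of NOP10 began 170 bases before the start and the proximal copy 11 before, that of DDX21 31 before and that of RRP9 5 before, while those of FBL, NOP14, BYSL, PES1 and NOP2 began 6, 15, 28, 13 and 35 bases after it. The other 5 genes with the motif were WDR43, GNL3, GAR1, NAT10 and UTP20. The motif stood in 8 of 17 matched genes that were lower in J+V and in 5 of the 12 that were not called. The median log2 fold change was -0.32 with it and -0.30 without it. None of the matched polymerase I subunits and initiation factors (POLR1A, POLR1B, POLR1C, POLR1D, RRN3 and UBTF) held it in this window.

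The C/D box snoRNP proteins bind guide RNAs that lie for the most part in introns of other genes. FBL (fibrillarin) is the methyltransferase of the particle, and NOP56 and NOP58 form its scaffold. FBL (GRCh37, chr19:40325098-40337019, minus strand) measured 34.3, 33.3, 27.8 and 37.6 FPKM in the control tumors 2L, 2R, 5L and 5R. It stood at 31.1, 31.0, 29.0 and 30.0 in J tumors, at 31.7, 24.6, 25.4 and 33.7 in V tumors and at 20.04, 22.4, 22.9 and 23.7 in J+V tumors. Every J+V tumor was below every other tumor, and the log2 fold change against control was -0.56 ± 0.10 (SE, adjusted p = 0.000803). Over all genes tested, 9.15% had every J+V tumor below every V tumor. The share with every J+V tumor below every other tumor was not counted. NOP56 (GRCh37, chr20:2633239-2639039, plus strand) measured 105.0, 114, 111 and 119 FPKM in control, 106, 111, 118 and 103 in J, 96.1, 78.2, 76.2 and 109 in V and 71.7, 72.3, 74.0 and 78.7 in J+V. The J+V tumors lay below all control and J tumors and overlapped with V, where 16R and 19L were near the J+V level and 16L and 19R above it. The log2 fold change of NOP56 was -0.59 ± 0.09 (SE, adjusted p = 0.000342). NOP58, the partner of NOP56, did not pass (-0.27 ± 0.15, adjusted p = 0.168): its control tumors ranged from 77.1 to 147 FPKM, with 5R the lowest, and its J+V tumors from 89.6 to 103. Without 5R, NOP58 was called lower.

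NOP56, NOP58, NCL, DKC1, GNL3, PPAN and WDR43 carry snoRNA genes of their own inside their bounds. The GENCODE v44 annotation lifted to GRCh37 and RefSeq both place 18 snoRNAs in these 7 genes. A guide of NOP56, a guide of NOP58 and a guide of DKC1 are shown because they carry the boxes that these same proteins bind. Capitals mark the C box as TGATGA and the D box as CTGA in the first 2 sequences, and the ACA before the last 3 bases in the third sequence.
SNORD110 (in NOP56, chr20:2634858-2634932): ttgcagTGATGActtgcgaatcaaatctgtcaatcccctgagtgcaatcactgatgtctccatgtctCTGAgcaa
SNORD11B (in NOP58, chr2:203156055-203156144): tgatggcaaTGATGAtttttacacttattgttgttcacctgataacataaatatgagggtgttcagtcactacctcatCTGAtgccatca
SNORA36A (in DKC1, chrX:153996803-153996934): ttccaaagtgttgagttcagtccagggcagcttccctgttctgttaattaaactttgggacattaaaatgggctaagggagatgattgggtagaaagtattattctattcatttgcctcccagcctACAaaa
Both boxes, searched on the strand of the RNA, with the C box starting in its first 20 bases and the D box in its last 20, were in 11 of the 14 C/D box guides of these genes and in 51.9% of all transcripts with a SNORD symbol in the annotation. The ACA was in 60.2% of those with a SNORA symbol. None of the 18 guides was called in J+V against control, where 3.08% of all 260 snoRNA symbols tested were lower and 15.8% higher, and the median log2 fold change was -0.14 for the 18 and 0.34 for all 260. SNORD110 ranged from 0 to 706 FPKM in control and from 271 to 588 in J+V, SNORD11B from 89.1 to 225 and from 47.5 to 154, and SNORA36A from 21.4 to 127 and from 0 to 119. The SE of the log2 fold change of the 18 guides ran from 0.26 (SNORA75) to 3.17 (SNORD82), both in NCL. The guides were not tested against their host genes. Reads of a guide that overlaps an exon of some transcript of its host, as SNORD110 and SNORA36A do, can also count for the host.

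Among the H/ACA box proteins, DKC1 (dyskerin) is the pseudouridine synthase, and NOP10, NHP2 and GAR1 complete the core. DKC1 (GRCh37, chrX:153991017-154005964, plus strand) measured 69.6, 79.2, 76.0 and 69.6 FPKM in control, 64.5, 65.4, 71.1 and 66.9 in J, 58.5, 51.6, 53.5 and 60.2 in V and 52.5, 49.3, 50.8 and 54.8 in J+V. V and J+V tumors overlapped with each other and lay below all control and J tumors. Every V tumor was below every control tumor for 3 of the 37 and for 1.99% of all genes tested. For J+V below J, the share of all genes was 22.2%, and for V below J it was not counted. DKC1 had the smallest adjusted p of the 37 in J+V against control (log2 fold change -0.50 ± 0.07 SE, adjusted p = 9.53e-05) and in V against control (-0.39 ± 0.07, adjusted p = 0.121), where it did not pass. NOP10 (GRCh37, chr15:34631360-34635381, minus strand) measured 116, 124, 111 and 119 FPKM in control, 99.7, 111, 125 and 114 in J, 93.2, 88.4, 94.6 and 120.2 in V and 78.2, 69.7, 68.5 and 96.5 in J+V. It fell by 0.59 on the log2 scale (SE 0.11, adjusted p = 0.000981), with all J+V tumors below all control and J tumors and 34R within the range of V. NHP2 fell as well (-0.47 ± 0.13, adjusted p = 0.011). GAR1, the least abundant of the 4, measured 5.36 to 9.01 FPKM in control and 4.69 to 8.18 in J+V, and its log2 fold change of -0.21 ± 0.17 did not pass (adjusted p = 0.345).

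**Figure D3:**
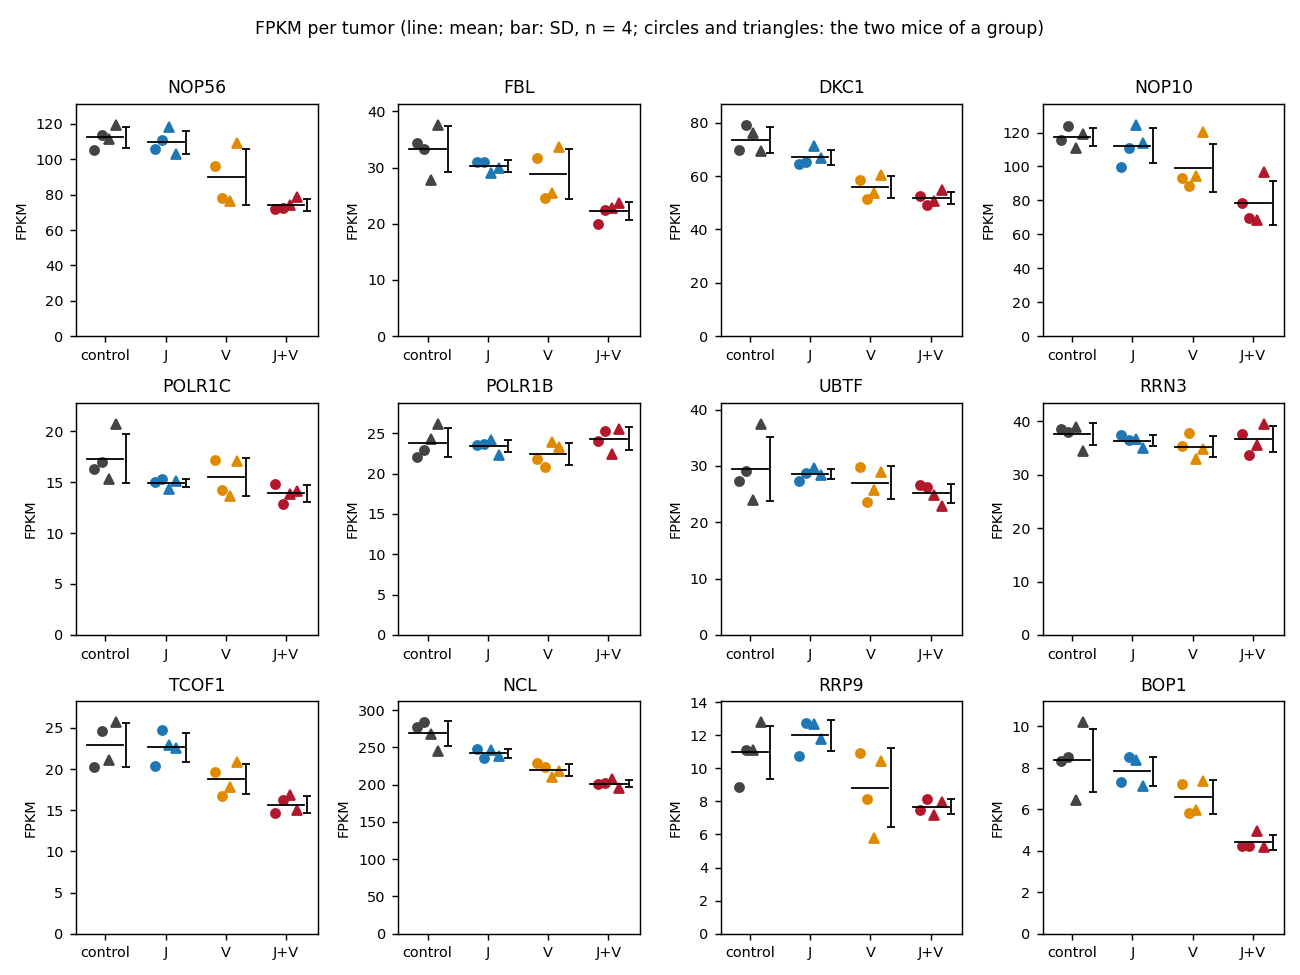
FPKM in each of the 16 tumors for 12 of the genes, with the group mean as a line and the SD (n = 4) as a bar, and circles and triangles for the 2 mice of a group. FBL, NCL and BOP1 have every J+V tumor below every other tumor, whereas for POLR1B, UBTF and RRN3 the J+V tumors overlap with control. How many of all genes tested have every J+V tumor below every other tumor was not counted.

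The RNA polymerase I genes had smaller differences. POLR1A and POLR1B encode the large catalytic subunits of polymerase I, POLR1C and POLR1D are shared with polymerase III, and POLR1E belongs to a subcomplex of polymerase I alone. POLR1C (GRCh37, chr6:43477440-43530156, plus strand) was the subunit that fell (log2 fold change -0.30 ± 0.09 SE, adjusted p = 0.0199). It measured 16.2, 16.9, 15.3 and 20.7 FPKM in control, 15.0, 15.3, 14.3 and 15.1 in J, 17.2, 14.2, 13.7 and 17.0 in V and 14.8, 12.8, 13.9 and 14.1 in J+V. The J+V tumors lay just under the lowest control tumor and overlapped with J and V, and without control tumor 5R, the highest, the call was lost. POLR1E (GRCh37, chr9:37485945-37503694, plus strand) measured 32.8, 34.6, 34.3 and 38.6 FPKM in control, 30.9, 34.0, 35.9 and 33.5 in J, 33.7, 24.5, 24.6 and 31.5 in V and 34.2, 28.2, 32.2 and 30.1 in J+V (log2 fold change -0.17 ± 0.10, adjusted p = 0.188). Its lowest tumors, 16R and 19L, were in V and not in J+V. POLR1B (GRCh37, chr2:113299492-113337395, plus strand) was the gene of the 37 with a value above 0 in J+V against control (0.03 ± 0.07, adjusted p = 0.754): it measured 22.0, 22.9, 24.3 and 26.2 FPKM in control, 23.5, 23.7, 24.2 and 22.4 in J, 21.8, 20.9, 23.9 and 23.3 in V and 24.0, 25.3, 22.5 and 25.6 in J+V. The groups overlapped fully, and the sign turned negative with other scaling or without control tumor 2L. POLR1A and POLR1D gave -0.12 ± 0.10 and -0.06 ± 0.10.

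UBTF opens the rDNA for initiation and RRN3 (TIF-IA) links the polymerase to the promoter and responds to growth signals through phosphorylation. UBTF (GRCh37, chr17:42282401-42298994, minus strand) measured 27.4, 29.0, 24.0 and 37.5 FPKM in control, 27.4, 28.7, 29.6 and 28.5 in J, 29.9, 23.5, 25.7 and 29.0 in V and 26.7, 26.3, 24.9 and 23.0 in J+V (log2 fold change -0.21 ± 0.11, adjusted p = 0.139). The control spread was wide, with 5R far above the rest. RRN3 (GRCh37, chr16:15153890-15188168, minus strand) measured 38.6, 38.1, 39.0 and 34.5 FPKM in control, 37.5, 36.4, 36.7 and 34.9 in J, 35.4, 37.8, 33.0 and 34.8 in V and 37.7, 33.8, 35.7 and 39.6 in J+V. All groups overlapped, and its log2 fold change of -0.03 ± 0.06 (adjusted p = 0.695) turned positive under 3 other scalings. Of 9 other polymerase I genes, among them the promoter selectivity factor subunits, 2 were lower, TAF1A (-0.31 ± 0.11 SE, adjusted p = 0.0315) and the transcript release factor PTRF (-0.51 ± 0.15, adjusted p = 0.0161), and 0 were higher.

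The nucleolar phosphoproteins include the most abundant genes of the pathway. NPM1 (nucleophosmin) had a mean of 2051 FPKM over the 16 tumors, and BYSL the lowest of the 37 with 2.54. TCOF1 (treacle) joins rDNA transcription to rRNA modification and nucleolin (NCL) binds the precursor. TCOF1 (GRCh37, chr5:149737192-149779871, plus strand) measured 20.3, 24.6, 21.1 and 25.7 FPKM in control, 20.4, 24.7, 23.0 and 22.5 in J, 19.6, 16.7, 17.9 and 20.9 in V and 14.7, 16.3, 16.8 and 15.1 in J+V. It fell by 0.53 on the log2 scale (SE 0.09, adjusted p = 0.000508), with 1 V tumor, 16R, inside the J+V range. NCL (GRCh37, chr2:232318242-232348352, minus strand) measured 278, 284, 269 and 246 FPKM in control, 248, 236, 247 and 238 in J, 229, 224, 210.0 and 218 in V and 201, 203, 208 and 195 in J+V. The 4 groups followed one another in that order with little overlap between control and J, none between J and V and none between V and J+V. Of all genes tested, 9.15% had every J+V tumor below every V tumor. The share with every V tumor below every J tumor was not counted. Its fall in J+V was 0.41 on the log2 scale (SE 0.06, adjusted p = 0.000186), while J (-0.15 ± 0.06, adjusted p = 0.502) and V (-0.29 ± 0.06, adjusted p = 0.141) did not pass. NOLC1 (-0.28 ± 0.07, adjusted p = 0.00511), a chaperone of snoRNPs, and the helicase DDX21 (-0.31 ± 0.09, adjusted p = 0.0127) fell. NPM1 did not pass (-0.31 ± 0.12, adjusted p = 0.0595), although its 4 J+V tumors (1641 to 1993 FPKM) lay below its 4 control tumors (2004 to 2500), and since NPM1 has many processed pseudogenes its FPKM is uncertain.

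The 9 small subunit factors act in or around the processome that cuts out 18S rRNA. UTP15 is a component of its UTP-A subcomplex and RRP9 a protein of the U3 snoRNP. UTP15 (GRCh37, chr5:72861268-72879205, plus strand) measured 21.8, 23.3, 22.5 and 13.6 FPKM in control, 22.3, 19.96, 19.1 and 17.2 in J, 11.8, 16.5, 18.1 and 18.2 in V and 16.5, 9.18, 14.7 and 12.5 in J+V. Control tumor 5R lay inside the J+V range, the SE was the largest of the 37 (log2 fold change -0.60 ± 0.19, adjusted p = 0.0201), and the call was lost without J+V tumor 33R or without control tumor 2R or 5L. RRP9 (GRCh37, chr3:51967445-51975920, minus strand) measured 8.90, 11.1, 11.1 and 12.8 FPKM in control, 10.8, 12.8, 12.7 and 11.8 in J, 10.9, 8.16, 5.79 and 10.5 in V and 7.48, 8.14, 7.18 and 7.94 in J+V. All its J+V tumors were below all control and J tumors (-0.48 ± 0.15, adjusted p = 0.0208), and the call was lost without control tumor 5L or 5R. Of all genes tested, 22.2% had every J+V tumor below every J tumor. NOP14, RRP12 and BYSL, a late assembly factor, also fell, by 0.32, 0.32 and 0.33. WDR43 (-0.22, adjusted p = 0.0504), WDR75, the rRNA acetyltransferase NAT10 (-0.16, adjusted p = 0.0661) and UTP20 (-0.08) did not pass.

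Of the 9 large subunit factors, 8 fell. BOP1, which with PES1 and WDR12 forms the complex needed to process the 5.8S and 28S rRNAs, had the largest fall of the 37. BOP1 (GRCh37, chr8:145486055-145515082, minus strand) measured 8.34, 8.50, 6.46 and 10.2 FPKM in control, 7.31, 8.50, 8.39 and 7.14 in J, 7.23, 5.84, 5.97 and 7.37 in V and 4.24, 4.23, 4.94 and 4.19 in J+V. Every J+V tumor was below every other tumor, a separation not counted over all genes tested, and the log2 fold change was -0.84 ± 0.11 (SE, adjusted p = 0.000123). Of all genes tested, 9.15% had every J+V tumor below every V tumor, and 22.2% below every J tumor. The partners PES1 (-0.48 ± 0.11, adjusted p = 0.00321) and WDR12 (-0.26 ± 0.07, adjusted p = 0.0124) fell too. RRS1, which takes part in bringing 5S RNA into the subunit (GRCh37, chr8:67341249-67342968, plus strand), measured 12.3, 13.5, 12.03 and 11.5 FPKM in control, 13.2, 14.7, 13.2 and 13.4 in J, 8.49, 9.46, 9.30 and 13.5 in V and 10.1, 6.38, 10.4 and 8.07 in J+V. Its J+V tumors were below all control and J tumors and overlapped with V (-0.50 ± 0.14, adjusted p = 0.012), and the call was lost without control tumor 5L. The rRNA methyltransferase NOP2, PPAN, NOP16 and RRP1B fell by 0.40, 0.38, 0.37 and 0.36. GNL3 (nucleostemin) measured 181 to 223 FPKM in control and 161 to 194 in J+V and did not pass (-0.17 ± 0.10, adjusted p = 0.192).

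Other genes of the pathway, outside the 37, were counted in the same comparison. Of 45 other small subunit processome genes 20 were lower and 0 higher, and of 47 other large subunit assembly genes 29 were lower and 2 higher, with medians of -0.26 and -0.29. The first group was led by UTP11L, whose control tumors varied widely (33.2 ± 19.7 FPKM, SD, n = 4, against 9.86 ± 5.57 in J+V), and AATF (66.7 ± 4.03 against 45.2 ± 4.498), and the second by RRP1 (10.4 ± 2.22 against 6.11 ± 0.443) and WDR18. Of 10 other snoRNP genes 5 were lower and 1 higher, led by the assembly factors RUVBL1 (log2 fold change -0.91 ± 0.14 SE, adjusted p = 0.000265) and PIH1D1 (-0.73 ± 0.14, adjusted p = 0.00144). The rRNA decay and exosome list had 9 of 15 lower, led by EXOSC6 and EXOSC9.

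The protein components of the ribosome itself make up a further list. Of 46 cytosolic ribosomal protein genes, 2 were lower in J+V against control, RPS7 (-0.44 ± 0.13, adjusted p = 0.0188) and RPS19 (-0.34 ± 0.12, adjusted p = 0.0375), and 0 were higher, a share of 4.35% against the 20.5% of all genes. Their median log2 fold change was -0.08. Ribosomal protein genes have many processed pseudogenes, so their FPKM is uncertain. Among the polymerases, 3 of 5 subunits shared between polymerases I, II and III were lower, led by POLR2F and POLR2H, 2 of 7 polymerase II subunits (POLR2A and POLR2C) and 3 of 11 polymerase III subunits, led by POLR3K (-0.70 ± 0.13, adjusted p = 0.00123) and POLR3E. The difference between any of these lists and the 37 genes was not tested.

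**Figure D4:**
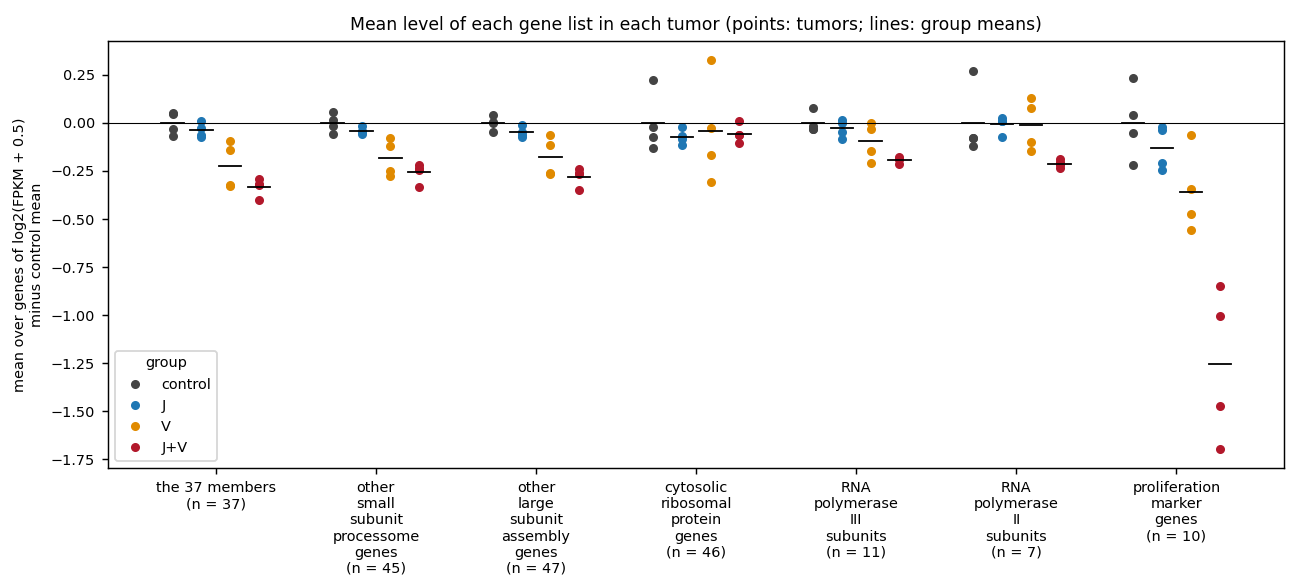
Mean over the genes of a list of log2(FPKM + 0.5) minus the control mean, with a point for each of the 4 tumors of each group and a line for the group mean. For the 37 genes the J+V tumors lie between -0.40 and -0.29 and the V tumors between -0.33 and -0.09, for the ribosomal protein genes J+V lies between -0.11 and 0.01, and for proliferation markers J+V lies between -1.70 and -0.85.

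Neither drug alone gave a call in the 37 genes with all tumors in the fit. In J against control, 0 of the 37 and 0% of all genes passed in either direction (limma). The study, which tested read counts, did report genes that changed under a single drug as well as under the combination. The counts of 0 here are thus those of this fit on FPKM. At an unadjusted p under 0.05, 2 of the 37 were lower and 0 higher, where 8.49% of all genes passed, and the smallest adjusted p was 0.502, for NCL. Averaged over the 37 genes, J tumors lay between -0.071 and 0.010 of the control mean on the log2 scale and overlapped with the control tumors, which lay between -0.067 and 0.050. In V against control, 0 of the 37 and 0% of all genes passed. This 0 rested on single tumors: 5 of the 37 were lower without control tumor 5R, 3 without mouse 5 and 2 without V tumor 19R. At an unadjusted p under 0.05, 17 of the 37 were lower and 0 higher, where 16.1% of all genes passed. All 37 had a log2 fold change below 0, between -0.41 and -0.03, with a median of -0.23 against 0.01 over all genes.

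The V tumors differed among themselves, and not by mouse. Averaged over the 37 genes the V tumors lay between -0.33 and -0.09 of the control mean, below every control tumor. Tumor 16R was the lowest of the 4 for 16 genes and 19L for 16, and 19R was the highest for 19 and 16L for 14, so that each mouse held a lower and a higher tumor. Among the 37, the SD over V tumors was 15.7 FPKM for NOP56 around a mean of 89.9, where it was 3.18 around 74.2 in J+V. Averaged in the same way, proliferation markers lay between -0.22 and 0.23 of the control mean in control, between -0.25 and -0.02 in J, between -0.56 and -0.06 in V and between -1.70 and -0.85 in J+V, and their part was not tested.

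Against J, 20 of the 37 genes were lower in J+V and 0 higher, where 18.4% of all genes were lower and 8.67% higher. The median over the 37 was -0.26. The largest differences were in BOP1 (-0.77 ± 0.11, adjusted p = 0.00051), RRS1 (-0.63 ± 0.14, adjusted p = 0.0047), RRP9 (-0.61 ± 0.15, adjusted p = 0.00841), UTP15 (-0.58 ± 0.19, adjusted p = 0.032) and NOP56 (-0.56 ± 0.09, adjusted p = 0.000999). For POLR1C the difference between J+V and J was -0.10 ± 0.09 (adjusted p = 0.445), for DDX21 -0.19 ± 0.09 (adjusted p = 0.115) and for WDR12 -0.17 ± 0.07 (adjusted p = 0.0899). This count rests on few animals: it was 6 without mouse 26, 6 without mouse 29 and 8 without mouse 33.

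Against V, 2 of the 37 were lower in J+V and 0 higher, where 8.31% of all genes were lower and 4.99% higher. These were BOP1 (-0.53 ± 0.11, adjusted p = 0.00897) and FBL (-0.36 ± 0.10, adjusted p = 0.0317). NOP10 (-0.34 ± 0.11, adjusted p = 0.0531), TCOF1 (-0.25 ± 0.09, adjusted p = 0.0757) and NOP56 (-0.26 ± 0.09, adjusted p = 0.0778) did not pass. The median over the 37 was -0.11, and 9 genes were above 0, among them GAR1 (0.20 ± 0.17), POLR1E (0.13 ± 0.10) and POLR1B (0.11 ± 0.07). Without mouse 19 or without mouse 33, 0 of the 37 were called.

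Whether the combination differed from the sum of the single drugs was tested as the J+V effect minus the J effect and the V effect on the log2 scale. No gene of the 37 passed, nor did any other gene (0% of all genes, limma). Over all genes this depended on mouse 34, without which 315 genes were below the sum and 45 above it, and on its tumor 34L (102 and 23 without it), while 0 of the 37 passed in either case. At an unadjusted p under 0.05, 2 of the 37 were below the sum and 0 above it, where 12.6% of all genes passed. The smallest adjusted p among the 37 was that of BOP1 (-0.45 ± 0.16 SE on the log2 scale, adjusted p = 0.262), followed by BYSL (-0.38 ± 0.15, adjusted p = 0.321), while DKC1 (0.03 ± 0.09) and NCL (0.02 ± 0.08) were near 0. The departure of BOP1 thus did not pass after adjustment over the 13426 genes tested.

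Calls on 10 genes held in all 37 alternatives that kept the threshold on the adjusted p: FBL, NOP56, DKC1, NOP10, NCL, NOLC1, TCOF1, NOP14, BOP1 and PES1. These include the enzyme of each snoRNP class (FBL and DKC1), and no polymerase I subunit or initiation factor. BYSL lost its call in 13 of the alternatives, RRP12 in 11 and NOP16 in 8. Mouse 33 was lower than mouse 34 in 26 of the 37 genes, with a median log2 difference of -0.07 where the median over all genes was 0.01.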

How the data were processed

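RNA from 16 A375 tumors, 4 in each of control, J, V and J+V, had been depleted of rRNA, made into ScriptSeq v2 libraries and sequenced. The authors aligned reads to hg19 with TopHat2 and deposited FPKM from Cufflinks for 23260 symbols (bcl2fastq is also named in the submitters' processing notes). Further version numbers, the annotation and whether mouse reads were removed were not given in the sources used here. Read depth is unknown.

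To each FPKM 0.5 was added before the log2. The 13426 genes that reached an FPKM of 1 in 4 or more tumors entered limma 3.58.1 (R 4.3.3), with a mean-variance trend, a term for each group and the mouse as a block (correlation -0.067, 12 residual degrees of freedom). Adjusted p values are limma's, Benjamini-Hochberg over these genes, called under 0.05. Fold changes on this scale understate those of low genes. All samples of a group come from 2 mice, so p values measure the spread between tumors. The fit was tested on simulated data. The study's own tests were run on read counts, which are not analysed here. Alternatives were other pseudocounts, filters, scalings, blocks, moderation and thresholds, and leaving out each tumor or mouse.

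The genes, lists, roles and tests were chosen with earlier results of these data known. In each role, tumor values were given for the 2 genes with the largest absolute change in J+V against control and for any gene opposite in sign to its role. In the related lists, up to 2 called genes with the largest change were named. Gene positions follow GENCODE v44 (lifted to GRCh37), promoters from RefSeq (GRCh38.p14), and snoRNA sequences from GENCODE. A snoRNA was placed in a gene where GENCODE and RefSeq both did so.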

Additional observations from a re-analysis of the deposited data

Results flagged for a closer look

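In 148 sets of 4 tumors (37 genes in 4 groups), a tumor was marked where its gap to the nearest other tumor divided by the range of its group exceeded the critical ratio of Dixon's test for 4 values. This marked 9 values, or 6.08%, and chance gives about 1 in 20. Of these, 5 were control tumor 5R: POLR1D at 90.9 FPKM (the others 76.3 to 77.01) and NAT10 at 39.1 (the others 32.8 to 33.2) were high, and DDX21 at 152.8 (the others 197 to 205), WDR43 at 75.5 (the others 98.5 to 103) and UTP15 at 13.6 (the others 21.8 to 23.3) were low. In J tumor 26R, NOLC1 was at 79.2 FPKM (the others 72.1 to 73.0) and RRS1 at 14.7 (the others 13.2 to 13.4). In J+V tumor 34L, BYSL was at 2.46 FPKM (the others 1.82 to 1.93) and BOP1 at 4.94 (the others 4.19 to 4.24), still below every tumor of the other groups for BOP1. Without 5R, the genes lower in J+V against control numbered 21.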

How the results depend on the processing

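The genes lower in J+V against control numbered 23, other pseudocounts, filters, scalings, blocks, moderation, mouse means and a flank term gave 20 to 32, and a fit to the compared groups alone gave 16. Under the study's thresholds (fold above 2, p under 0.01, FDR under 0.1) 0 were lower, also against J and against V. Leaving out tumors or mice gave 11 to 24. The genes lower in V against control were 0 as reported and 0 to 5 with a tumor or mouse left out (5 without control tumor 5R, 3 without mouse 5, 2 without V tumor 19R). Those lower in J+V against J were 20, 13 with upper quartile scaling, with quantile normalization and with mouse means, and 6 to 23 with a tumor or mouse left out. Those lower in J+V against V were 2, 12 with a common sum of FPKM, 1 with mouse means or with the compared groups alone, and 0 to 5 with a tumor or mouse left out. Counts of higher genes, and those of J and of the departure from the sum, stayed within 1.5 times. A common sum of FPKM moved the median of all genes in J+V against control from -0.03 to -0.22. The split of all calls moved from 2756 lower and 2223 higher to 4727 and 816. Small nucleolar RNA symbols held 38.0% to 49.3% of the summed FPKM in control tumors and 49.7% to 57.0% in J+V tumors. Relative to the median of all genes, 36 of the 37 were lower as reported and with a common sum, and 33 with quantile normalization. Without the block the count of the 37 stayed at 23, and with mouse means it was 20. Over all genes, those lower in J+V against control numbered 2756 with the block, 2571 without it and 2120 with mouse means. Signs turned in J+V against control for POLR1B (-0.18 with a common sum), POLR1D (0.06 with quantile normalization), GNL3 (0.021 with quantile normalization) and RRN3 (0.006 with a common sum outside small RNA symbols, 0.015 with upper quartile scaling, 0.04 with quantile normalization). With a tumor or mouse left out, POLR1B ranged from -0.052 to 0.111, RRN3 from -0.073 to 0.004 and GAR1 from -0.429 to 0.009. The cause of these moves was not tested. No paired analysis was possible because no replicate number is shared between groups.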
